A study of Homo sapiens with 15 samples.

Results

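The genes described are 51 genes of DNA replication and of entry into S phase, picked by gene name out of the 58735 genes of the deposited expression table. They cover the replicative helicase, the factors that load and activate it, the sliding clamp and its loader, the polymerases, the enzymes that finish the new strand, the enzymes that make its building blocks, and the regulators that start S phase. All 51 had enough reads to be tested. The RNA was that of A549, a human line established from a lung adenocarcinoma. Controls received an equal volume of dimethyl sulfoxide (DMSO) for 24 h. In the other 4 groups the cells received urban fine particulate matter (PM2.5, particles of up to 2.5 µm) at 100 µg/mL for 24 h. The labels code these groups as CDSUM, CDWIN, CQSUM and CQWIN and do not spell the codes out. Each of the 5 groups had 3 libraries, and nothing in the labels ties them to separate cultures, so each p-value reflects the spread between these libraries, which may be technical.

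Before a cell copies its DNA, the origin recognition complex, CDC6 and CDT1 load rings of the MCM2 to MCM7 helicase onto origins, and GMNN (geminin) holds CDT1 in check. Kinases then start the helicase by bringing in CDC45 and the GINS complex, after which polymerases, the PCNA clamp and its RFC loader copy the strands. Cyclin D1 (CCND1) and the E cyclins drive cells toward this step by freeing E2F transcription factors, and E2F1 activates many genes of the replication machinery.

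Libraries held 17583532 to 19216323 counted reads. The libraries differed in how counts followed the GC content and length of transcripts. The GC slope, in log2 units per 10 percentage points, was 0.0895 to 0.308 in DMSO and 0.189 to 0.229 in CDSUM, and from −0.22 to −0.0887 in the other groups apart from CDWIN 2 at 0.159. The length slope per doubling was 0.0472 to 0.167 in DMSO, −0.168 to −0.106 in CDSUM and −0.111 to −0.0297 in CDWIN, while CQWIN 3 stood at 0.193. Values with these trends removed from each library are therefore given beside the main ones. Of the 9 markers of type II alveolar cells, the cell type on the labels, SFTPA1 and SFTPA2 had 0 reads and only ABCA3 and NAPSA were high enough to test. The 5 epithelial markers summed to 8880 to 11800 CPM (reads scaled to library depth) in DMSO and 4420 to 6000 in the PM2.5 libraries, the 9 type II markers to 76 to 87.7 and 42.2 to 68.3. ABCA3 made up nearly all of the type II sum, at a mean of 78.3 CPM in DMSO and 45.3 to 53.1 in the PM2.5 groups. The epithelial markers did not move together: KRT8 and KRT18, which make up most of the sum, were lower in all 4 comparisons with DMSO, and CDH1 in CDSUM, CDWIN and CQSUM. KRT19 was higher in all 4 (mean 254 CPM in DMSO and 401 to 435 in the PM2.5 groups), and EPCAM in CDSUM, CDWIN and CQSUM (0.923 CPM in DMSO and 1.79 to 3.63 in the PM2.5 groups). The part of these markers in the results was not tested. Across all libraries the 6 leukocyte markers summed to at most 14.8 CPM (PTPRC and CD3E at 0 reads), the 5 fibroblast markers to at most 26.8 (COL1A2 at 0 reads) and the 3 endothelial markers to at most 1.19.

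Expression is given as CPM with TMM library scaling (a trimmed mean of log ratios), per library or as mean ± SD (n = 3). Differences are log2 fold changes ± SE from edgeR's quasi-likelihood test. A gene is called lower or higher when its p, adjusted by Benjamini and Hochberg's method over the 15565 genes tested, was under 0.05. In libraries made from whole cultures, fewer cells in a state and less RNA per cell cannot be told apart.

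Against DMSO, 33 of the 51 genes were lower and 1 was higher in CDSUM, where 31.2% of all tested genes were lower and 15.3% higher. In CDWIN 22 were lower and 4 higher, beside 23.3% and 18.4% of all genes. In CQSUM 19 were lower and 3 higher, beside 18.8% and 13.7%. In CQWIN 21 were lower and 1 higher, beside 15.8% and 11.6%. The median log2 fold change of the 51 genes was −0.63, −0.27, −0.20 and −0.32 in the order CDSUM, CDWIN, CQSUM and CQWIN, and that of all tested genes was −0.25, −0.11, 0 and 0.02. Summed over the 51 genes, the DMSO libraries held 4910 to 5240 CPM and the PM2.5 libraries 3220 to 4070, with no overlap. Abundant genes weigh most in this sum. By mean CPM in DMSO and in the PM2.5 groups, MCM7 stood at 632 and 376 to 417 and TK1 at 426 and 221 to 256. PCNA went the other way, at 385 and 401 to 444.

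The comparisons all use the same 3 DMSO libraries, so the 4 sets of calls are not independent. Of the 51 genes, 18 were lower in each of the 4 comparisons (11.7% of all genes were): POLE, CCND1, MCM5, MCM2, CDT1, LIG1, CHAF1A, POLD1, GINS4, TK1, MCM4, E2F1, RRM2, MCM7, CHAF1B, GINS1, MCM3 and TYMS. POLA2 and ORC1 were lower in 3, and POLA1 and MCM10 in 2. Another 13 were lower in 1, namely CDC45 and GINS2 in CQWIN, and CCNE2, CDC6, CDC7, MCM6, MCM8, ORC2, POLD3, RFC1, RFC3, RFC4 and RRM1 in CDSUM. RPA3, PRIM2, ORC3, RFC2 and GINS3 were higher in at least 1, and 11 genes were called in none.

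**Figure D1:**
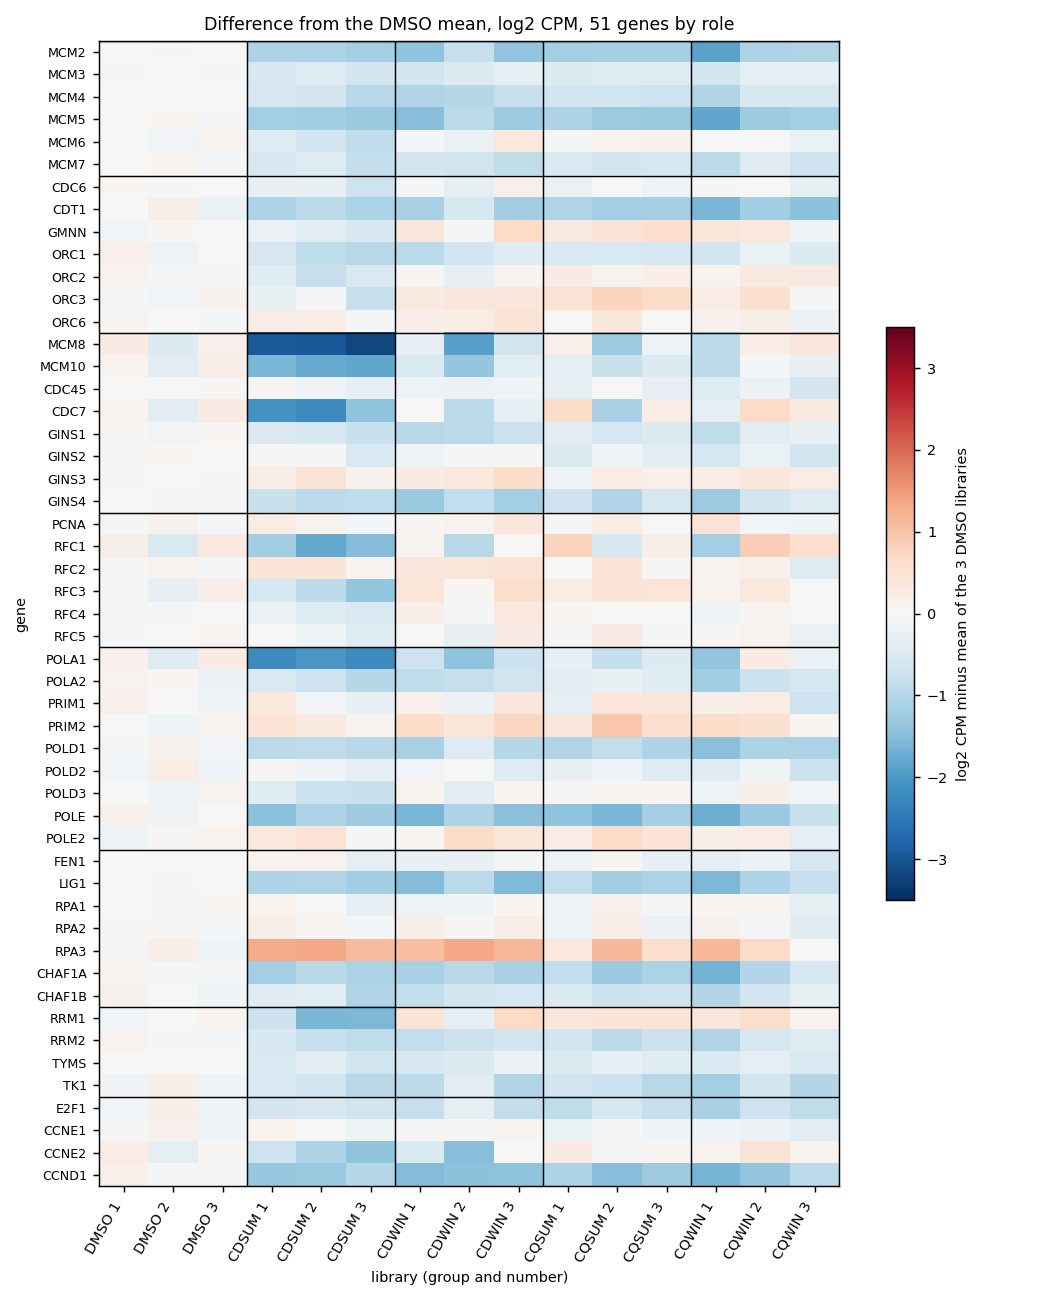
Difference of each of the 51 genes (rows, grouped by role between black lines) from the mean of the 3 DMSO libraries in each of the 15 libraries (columns), in log2 CPM by colour. MCM2, MCM5, CDT1, POLE, LIG1, CHAF1A and CCND1 are blue in all 12 PM2.5 libraries, and MCM8, POLA1 and RRM1 are bluest in CDSUM. RPA3 is red in the PM2.5 libraries apart from CQWIN 3 (−0.02).

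Scaling, composition and single libraries shifted these counts in part. Leaving out CQWIN 2 or CQWIN 3 alone moved the shares over all genes also in comparisons they are not part of. TMM scaling was estimated anew in each fit. The median of all genes in CDSUM was −0.04 without CQWIN 3 and −0.25 without CDWIN 2 and CQWIN 3 together. In CQSUM it was 0.19 and 0. Without that pair 34.1%, 23.7%, 21.4% and 21.4% of all genes were lower in CDSUM, CDWIN, CQSUM and CQWIN. The part of the scaling in calls lost without CQWIN 2 or CQWIN 3 was not tested. Without CQWIN 2, 18.9% of all genes were lower in CDSUM, 15.8% in CDWIN, 11.5% in CQSUM and 7.79% in CQWIN, and 25, 19, 14 and 16 members were. Without CQWIN 3 the shares higher were 22.9%, 24.6%, 24.9% and 24.3%, and without CQWIN 1 10.3% were lower and 5.4% higher in CQWIN. The members lower in all 4 were 14 without CQWIN 2, beside 4.5% of all genes tested in the full set. With the size factors of DESeq2 the median of all genes in CDSUM was −0.10 in place of −0.25, and the members lower and higher were 30 and 3 in CDSUM, 21 and 4 in CDWIN, 16 and 4 in CQSUM, and 16 and 1 in CQWIN. In that fit 23.2% of all genes were lower and 19.1% higher in CDSUM, 19.6% and 20.4% in CDWIN, 15.5% and 16.9% in CQSUM, and 13.5% and 14% in CQWIN. Of all called genes in CDSUM, 32.9% were higher under TMM and 45.1% under those factors, and in CQSUM 42.2% and 52.3%. In fits to the compared groups only, 11 members were higher in at least 1 comparison with DMSO. All genes higher then made up 27%, 21.1%, 18.8% and 5.43% in CDSUM, CDWIN, CQSUM and CQWIN. In CDSUM 27.5% were lower and the median was −0.03. The members lower in all 4 were 14, beside 6.8% of all genes tested in the full set. With GC and length trends removed, 30, 20, 19 and 20 members were lower, beside 17.3%, 14%, 8.99% and 7.33% of all genes, and 3, 2, 0 and 0 were higher, beside 20.7%, 18.1%, 9.56% and 8.07%. All genes called in either direction then made up 38% in CDSUM and 32.1% in CDWIN. In that fit 16 members were lower in all 4, beside 3.98% of all genes, and 14 of them were among the 18. Under every alternative run, 9 genes stayed lower in all 4 comparisons: CCND1, CDT1, CHAF1A, GINS4, LIG1, MCM2, MCM5, POLE and RRM2.

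Promoter sequences are shown for 4 genes, to set a pair from the 18 genes beside a pair called in no comparison, with the short motifs that E2F factors and NF-Y are known to bind. Each runs from 250 bases before to 50 bases after the RefSeq start site on GRCh38.p14, written on the strand of the gene. Capitals mark matches on either strand to the E2F spellings TTTCGCGC and TTTGGCGC or to CCAAT, the NF-Y motif. POLE, the catalytic subunit of the leading-strand polymerase, lies on the minus strand at chr12:132687293-132687592 and MCM2, a helicase subunit, on the plus strand at chr3:127598161-127598460. RFC5, a clamp-loader subunit, is at chr12:118016453-118016752 and RPA1, the large subunit of the single-strand binding protein, at chr17:1829755-1830054, both on the plus strand.
POLE: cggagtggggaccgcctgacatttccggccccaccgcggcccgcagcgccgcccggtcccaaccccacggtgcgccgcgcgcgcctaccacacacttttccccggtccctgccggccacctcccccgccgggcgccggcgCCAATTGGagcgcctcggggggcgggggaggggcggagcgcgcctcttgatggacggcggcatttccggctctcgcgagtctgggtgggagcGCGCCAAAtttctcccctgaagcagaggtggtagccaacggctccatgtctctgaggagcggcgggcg
MCM2: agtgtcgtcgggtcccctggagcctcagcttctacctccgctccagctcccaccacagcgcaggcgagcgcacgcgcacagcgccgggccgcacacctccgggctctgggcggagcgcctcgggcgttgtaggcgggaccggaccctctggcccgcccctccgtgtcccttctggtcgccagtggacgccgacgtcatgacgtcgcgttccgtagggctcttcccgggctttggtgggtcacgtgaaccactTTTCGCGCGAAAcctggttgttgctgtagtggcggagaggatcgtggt
RFC5: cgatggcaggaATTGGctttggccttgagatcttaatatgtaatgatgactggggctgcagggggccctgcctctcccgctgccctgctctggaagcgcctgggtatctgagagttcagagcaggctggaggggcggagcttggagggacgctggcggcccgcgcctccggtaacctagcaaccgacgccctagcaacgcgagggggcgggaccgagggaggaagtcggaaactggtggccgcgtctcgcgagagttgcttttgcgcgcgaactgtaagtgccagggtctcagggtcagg
RPA1: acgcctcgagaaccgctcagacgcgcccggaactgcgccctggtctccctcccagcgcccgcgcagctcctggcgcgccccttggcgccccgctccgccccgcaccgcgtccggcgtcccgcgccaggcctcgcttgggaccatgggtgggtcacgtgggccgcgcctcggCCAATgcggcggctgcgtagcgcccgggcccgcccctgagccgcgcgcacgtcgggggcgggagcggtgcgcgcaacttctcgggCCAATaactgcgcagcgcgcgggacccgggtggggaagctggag

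MCM2 held TTTCGCGC on both strands, as overlapping matches whose leftmost bases are bases 3 and 7, the start site being base 1. POLE held TTTGGCGC on the opposite strand from 18 bases before the start site, and CCAAT on both strands. RFC5 and RPA1 held CCAAT and neither E2F spelling. Of the 51 genes, 34 had exactly 1 entry in the RefSeq table and were searched, a limit not set on the 35116 promoters of the whole table. An E2F spelling was in 11 of the 34 (32.4%), beside 403 of all 35116 (1.15%). The genes were POLE, MCM2, MCM3, E2F1 and GINS1 among 10 of the 18 genes, POLE2 among 8 of those called in no comparison, and CDC6, MCM6, MCM8, POLA1 and POLA2 among the remaining 16. CCAAT was in 21 of the 34 (61.8%) and in 34.6% of all promoters, and TTTGAA, the CHR motif of genes of later cell cycle phases, in 1 of the 34 (2.94%) and in 15.2% of all. These are matches of letters and no measure of binding.

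Among the helicase subunits, MCM2, MCM3, MCM4, MCM5 and MCM7 were lower in all 4 comparisons, and MCM6 was lower in CDSUM alone. Per length, MCM7 was the most abundant in DMSO at 135 ± 10.8 FPKM (SD, n = 3), and the other subunits lay between 23.3 ± 0.84 for MCM6 and 33.1 ± 1.09 for MCM4. MCM2 stood at 136, 143 and 136 CPM in DMSO, 65.6, 65.4 and 60.5 in CDSUM, 51.4, 78.6 and 53.5 in CDWIN, 60.3, 61.4 and 62.0 in CQSUM, and 37.7, 65.4 and 66.5 in CQWIN. Every DMSO library was above every PM2.5 library, and the 4 PM2.5 groups overlapped. The log2 fold changes were −1.11 ± 0.19, −1.18 ± 0.19, −1.17 ± 0.19 and −1.29 ± 0.19 in CDSUM, CDWIN, CQSUM and CQWIN (edgeR adjusted p = 0.000439, 0.0003, 0.000404 and 0.000203).

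MCM5, whose subunit closes the helicase ring together with that of MCM2, stood at 200, 209 and 191 CPM in DMSO, 87.4, 85.5 and 80.4 in CDSUM, 71.6, 105 and 83.1 in CDWIN, 94.8, 82.8 and 81.3 in CQSUM, and 56.6, 84.4 and 87.3 in CQWIN. CQWIN 1 was lowest and CDWIN 2 highest of the PM2.5 libraries for both genes. MCM5 was 2.37-fold, 2.31-fold, 2.32-fold and 2.63-fold lower (edgeR adjusted p = 0.000114, 0.000113, 0.000137 and 3.43e-05). With the trends removed the log2 fold changes were −0.67, −0.57, −0.63 and −0.90 for MCM5 and −0.72, −0.70, −0.69 and −0.85 for MCM2, all still called.

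MCM4 stood at 249, 245 and 246 CPM in DMSO, 163, 158 and 125 in CDSUM, 119, 124 and 141 in CDWIN, 157, 152 and 149 in CQSUM, and 119, 166 and 167 in CQWIN. MCM7 stood at 623, 662 and 611 CPM in DMSO, 423, 458 and 348 in CDSUM, 397, 389 and 341 in CDWIN, 441, 401 and 410 in CQSUM, and 326, 458 and 383 in CQWIN. For both subunits the DMSO libraries lay above all others. The log2 fold changes were −0.95 to −0.70 for MCM4, −0.75 to −0.60 for MCM7 and −0.55 to −0.44 for MCM3, whose DMSO libraries held 122 to 129 CPM and PM2.5 libraries 78.3 to 102. With the trends removed MCM7 was called in none of the 4, at −0.30, −0.32, −0.18 and −0.29, MCM3 was called in CDSUM only, at −0.5, and MCM4 kept all 4 calls. As tested, the calls of MCM3 were lost without CQWIN 2 in all 4 comparisons, without CQWIN 3 in CDWIN, CQSUM and CQWIN, without CDWIN 1 in CDWIN, and without DMSO 1, DMSO 2 or CQWIN 1 in CQWIN. MCM7 shares 8.94% of its exon bases with AP4M1 on the opposite strand, which was far lower, at a mean of 15.4 CPM.

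MCM6 stood at 104, 95.7 and 109 CPM in DMSO, 75.6, 65.1 and 54.9 in CDSUM, 97.7, 87.9 and 132 in CDWIN, 100, 112 and 115 in CQSUM, and 103, 102 and 87.0 in CQWIN. Its CDSUM libraries were the lowest of all 15, and the other PM2.5 groups overlapped DMSO. It fell by 0.66 ± 0.16 on the log2 scale in CDSUM (edgeR adjusted p = 0.00336), and its changes elsewhere were 0.04, 0.08 and −0.08.

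**Figure D2:**
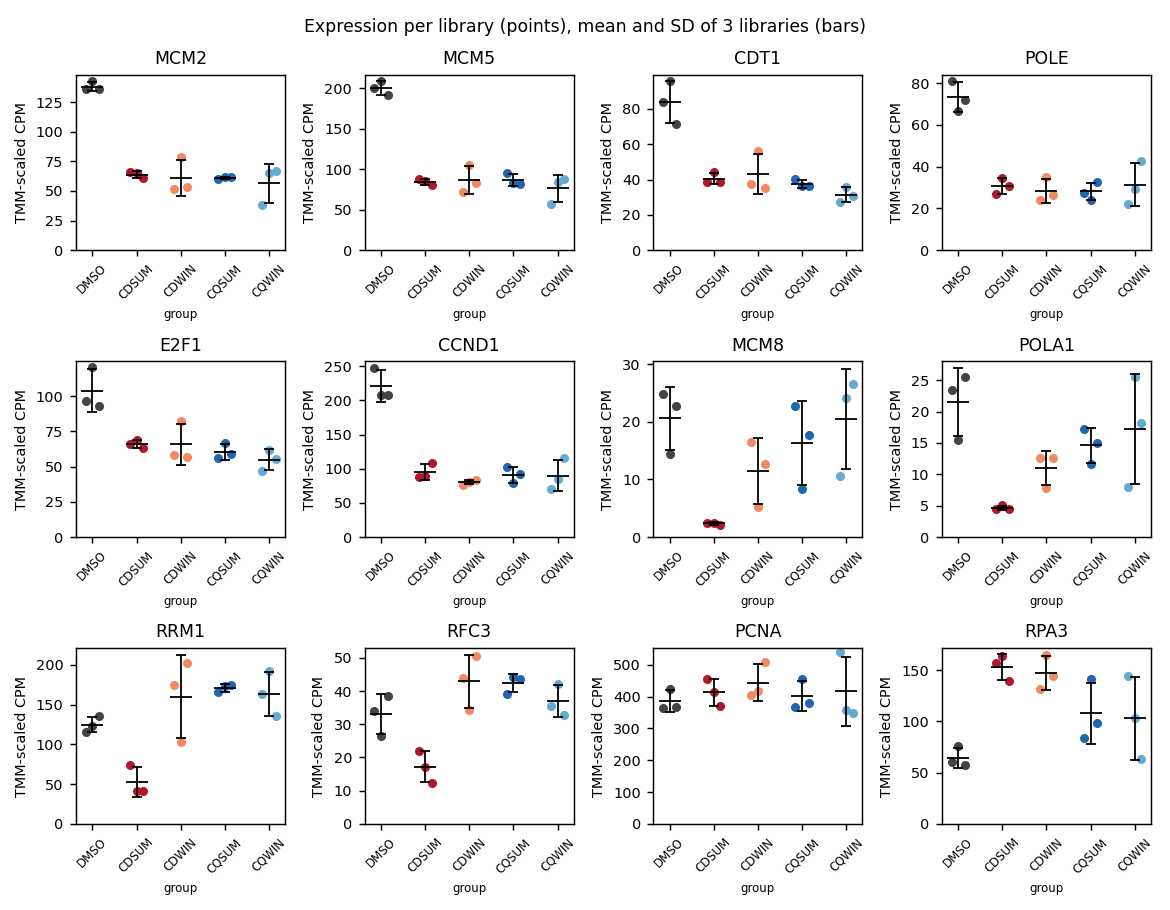
TMM-scaled CPM of 12 genes in each library (points) with the mean and SD of the 3 libraries of a group (black lines), each panel starting at 0. DMSO lies above every PM2.5 library for MCM2, MCM5, CDT1, POLE, E2F1 and CCND1, CDSUM lies below the other groups for MCM8, POLA1, RRM1 and RFC3, PCNA overlaps throughout, and RPA3 is lowest in DMSO apart from 1 CQWIN library within its range.

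Of the 7 genes of origin recognition, loading and licensing, CDT1 was lower in all 4 comparisons and ORC1, the initiator subunit that binds first, in 3. CDT1, which brings the helicase to origins, stood at 84.1, 95.9 and 71.7 CPM in DMSO, 38.7, 44.2 and 38.8 in CDSUM, 37.7, 55.9 and 35.4 in CDWIN, 40.3, 36.2 and 36.4 in CQSUM, and 27.5, 35.9 and 30.7 in CQWIN. The groups did not overlap with DMSO, and the log2 fold changes were −1.05 ± 0.17, −0.96 ± 0.17, −1.16 ± 0.17 and −1.42 ± 0.17 (edgeR adjusted p = 0.000382, 0.000574, 0.000238 and 3.97e-05). They were −0.73, −0.60, −0.66 and −0.85 with the trends removed, all still called. ORC1 fell from 18.3 to 24.0 CPM in DMSO to 10.6 to 13.9 in CDSUM, with log2 fold changes of −0.82, −0.67 and −0.56 in the 3 called comparisons and −0.46 in CQWIN. The CQSUM call of ORC1 was lost without DMSO 1, DMSO 3, CQWIN 2, CQWIN 3 or any CQSUM library, and its CDWIN call without CDWIN 1. CDC6, which loads the ring with CDT1, was lower in CDSUM (−0.43 ± 0.16, edgeR adjusted p = 0.0328), a call lost with the trends removed (−0.23) and without DMSO 1, DMSO 3, CDSUM 3, CQWIN 2 or CQWIN 3.

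GMNN, the inhibitor of CDT1, was called in no comparison with DMSO, with 29.2 to 32.6 CPM in DMSO, 21.0 to 27.0 in CDSUM and 28.5 to 50.8 in the other PM2.5 groups. It was called lower in CDSUM once the trends were removed (−0.56, edgeR adjusted p = 0.00316). In the authors' deposited table GMNN was higher in CQSUM (0.5). ORC3 stood at 17.1, 16.4 and 19.4 CPM in DMSO, 14.7, 16.6 and 9.88 in CDSUM, 22.2, 23.2 and 23.3 in CDWIN, 25.1, 30.0 and 27.1 in CQSUM, and 20.9, 25.7 and 16.9 in CQWIN. This core subunit of the origin recognition complex was higher in CQSUM (0.64 ± 0.19, edgeR adjusted p = 0.0165). That call was lost with GC and length trends removed (0.20) and without DMSO 1, DMSO 2 or CQSUM 2. ORC2 was lower in CDSUM (−0.59 ± 0.16, edgeR adjusted p = 0.00698), at −0.16 and not called with the trends removed, nor without CQWIN 2 or CQWIN 3, and ORC6 was called in none.

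Among the genes that activate the helicase, GINS4 and GINS1, subunits of the GINS complex, were lower in all 4 comparisons. GINS4 stood at 44.9, 45.8 and 43.6 CPM in DMSO, 25.8, 23.7 and 23.9 in CDSUM, 18.2, 24.8 and 19.5 in CDWIN, 26.9, 21.4 and 29 in CQSUM, and 18.7, 28.5 and 33.1 in CQWIN. Its DMSO libraries lay above all others, and the log2 fold changes were −0.87, −1.11, −0.80 and −0.74, each with an SE of 0.19. GINS1 changed by −0.62, −0.89, −0.49 and −0.48, its CQSUM call being lost without DMSO 1, DMSO 3, CQSUM 2, CQSUM 3, CQWIN 2 or CQWIN 3, its CQWIN call without DMSO 1, DMSO 3 or any CQWIN library, and its CDSUM call without CQWIN 2. Of the other GINS subunits, GINS2 was lower in CQWIN alone (−0.50 ± 0.16, edgeR adjusted p = 0.0282) and GINS3 higher in CDWIN alone (0.45 ± 0.16, edgeR adjusted p = 0.0343). GINS3 stood at 17.1 to 18 CPM in DMSO and 21.6 to 27.5 in CDWIN, and its call was lost with the trends removed (0.36), and without any DMSO library or CDWIN 3. GINS3 was called higher in CDSUM in that fit (0.49, edgeR adjusted p = 0.0164). The GINS2 call was lost without any DMSO library, CQWIN 1 or CQWIN 3, as was that of CDC45 in CQWIN (−0.42 ± 0.15, edgeR adjusted p = 0.0372), which was lost in addition with the trends removed (−0.37) and without CDSUM 2, CQSUM 3 or CQWIN 2.

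The largest fall of any member was that of MCM8 in CDSUM. MCM8, a helicase related to MCM2 to MCM7 and known for its part in homologous recombination, stood at 24.8, 14.4 and 22.8 CPM in DMSO, 2.51, 2.45 and 2.12 in CDSUM, 16.6, 5.29 and 12.7 in CDWIN, 22.8, 8.35 and 17.8 in CQSUM, and 10.6, 24.2 and 26.6 in CQWIN. Its 3 CDSUM libraries lay far below the rest, while DMSO 2, CDWIN 2, CQSUM 2 and CQWIN 1 were each the lowest of their own group. MCM8 was 8.74-fold lower in CDSUM than in DMSO (log2 −3.13 ± 0.44, edgeR adjusted p = 0.000151) and −2.61 with the trends removed. In the other 3 groups it was not called, at −0.84, −0.34 and −0.01. The authors' deposited table had MCM8 lower in CDWIN too (−0.77).

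CDC7, the kinase that triggers helicase activation, stood at 6.40, 4.38 and 7.14 CPM in DMSO, 1.26, 1.20 and 2.12 in CDSUM, 5.94, 2.98 and 4.57 in CDWIN, 9.17, 2.60 and 6.99 in CQSUM, and 4.63, 9.57 and 7.34 in CQWIN. It was lower in CDSUM (−1.96 ± 0.42, edgeR adjusted p = 0.00147) and its other groups overlapped DMSO. MCM10, which helps the assembled helicase to open the origin, stood at 33.9, 24.0 and 36.4 CPM in DMSO, 10.2, 8.98 and 8.69 in CDSUM, 21.5, 12 and 23.2 in CDWIN, 24.5, 17.8 and 22.4 in CQSUM, and 16.4, 29.2 and 25.9 in CQWIN. It was lower in CDSUM (−1.76 ± 0.25) and CDWIN (−0.73 ± 0.25, edgeR adjusted p = 0.0232), and its CDWIN call was lost without DMSO 1, DMSO 3, CDWIN 2, CQWIN 2 or CQWIN 3. With the trends removed MCM10 was called in all 4, at −1.49, −0.82, −0.70 and −0.60.

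The sliding clamp PCNA, the most abundant of the 51 genes per length at 245 ± 31.7 FPKM in DMSO, was not called. It stood at 363, 425 and 367 CPM in DMSO, 456, 414 and 371 in CDSUM, 406, 417 and 510 in CDWIN, 367, 456 and 381 in CQSUM, and 540, 359 and 348 in CQWIN. All groups overlapped, and the 95% interval of the log2 fold change was −0.26 to 0.47, −0.16 to 0.57, −0.31 to 0.43 and −0.26 to 0.48. The direction of PCNA depended on the trends: with GC and length trends removed it was lower in all 4, at −0.36, −0.39, −0.46 and −0.37. In the authors' deposited table PCNA was higher in CDSUM (0.34). PCNA is the shortest of the 51 genes, at 1471 bases.

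Of the 5 subunits of the RFC clamp loader, RFC1, RFC3 and RFC4 were lower in CDSUM, RFC2 was higher in CDWIN, and RFC5 was called in none. RFC1, the large subunit, stood at 18.5, 11.2 and 20.4 CPM in DMSO, 6.88, 4.57 and 5.59 in CDSUM, 17.4, 8.15 and 16.1 in CDWIN, 27.6, 10.9 and 18.7 in CQSUM, and 7.06, 29.7 and 24.2 in CQWIN. The spread within CQWIN was wider than the gap between DMSO and CDSUM, and RFC1 was lower in CDSUM (−1.56 ± 0.43, edgeR adjusted p = 0.0073). RFC3 stood at 33.9, 26.6 and 38.6 CPM in DMSO, 21.8, 17.2 and 12.4 in CDSUM, 44.0, 34.4 and 50.4 in CDWIN, 39.2, 44.3 and 43.6 in CQSUM, and 35.6, 42.2 and 32.9 in CQWIN. It was lower in CDSUM (−0.95 ± 0.20, edgeR adjusted p = 0.00148) and at 0.38, 0.36 and 0.16 elsewhere, not called. The authors' deposited table had RFC3 higher in CDWIN (0.46) and CQSUM (0.41). RFC2 stood at 79.4, 89.6 and 80.2 CPM in DMSO and 109, 112 and 116 in CDWIN (0.44 ± 0.17, edgeR adjusted p = 0.0467), a call lost without any 1 of the DMSO or CDWIN libraries, and without CDSUM 1, CDSUM 2, CQSUM 1 or CQSUM 3. The RFC4 call (−0.39 ± 0.15, edgeR adjusted p = 0.0405) was lost without any DMSO or CQSUM library, and without CDSUM 2, CDSUM 3, CDWIN 1, CQWIN 2 or CQWIN 3.

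POLE and POLD1, the catalytic subunits of the polymerases that copy the leading and the lagging strand, were lower in all 4 comparisons. POLE, at 4.12 ± 0.294 FPKM in DMSO, stood at 81.1, 66.8 and 72.0 CPM in DMSO, 26.8, 34.4 and 30.7 in CDSUM, 24.2, 34.9 and 26.2 in CDWIN, 27.5, 24.2 and 32.6 in CQSUM, and 22.2, 29.5 and 42.5 in CQWIN. The lowest DMSO library lay above the highest PM2.5 library, and the log2 fold changes were −1.26, −1.37, −1.38 and −1.22, each with an SE of 0.21 (edgeR adjusted p = 0.000378, 0.000206, 0.000238 and 0.000538). With the trends removed POLE, whose 16609 bases make it the longest of the 51 genes, stayed called at −0.42, −0.52, −0.68 and −0.68. POLD1 stood at 148, 167 and 142 CPM in DMSO, 79.0, 82.3 and 77.4 in CDSUM, 68.8, 111 and 76.0 in CDWIN, 73.2, 83.0 and 71.6 in CQSUM, and 55.6, 70.1 and 70.6 in CQWIN. No PM2.5 library reached DMSO, and the log2 fold changes were −0.93, −0.84, −1 and −1.21, at −0.41, −0.30, −0.39 and −0.59 with the trends removed, where the CDWIN call was lost.

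Of the accessory polymerase subunits, POLD2 and POLE2 were called in none, and POLD3 was lower in CDSUM only (−0.64 ± 0.17, edgeR adjusted p = 0.00583), at −0.36 and still called with the trends removed. Of the primase-polymerase that starts each strand, POLA1, its catalytic subunit, stood at 23.5, 15.4 and 25.5 CPM in DMSO, 4.43, 5.06 and 4.4 in CDSUM, 12.6, 7.79 and 12.6 in CDWIN, 17.2, 11.7 and 15 in CQSUM, and 8.01, 25.5 and 18.2 in CQWIN. CDSUM lay below every other library, and POLA1 was 4.64-fold lower there (edgeR adjusted p = 0.00021) and 1.95-fold lower in CDWIN (edgeR adjusted p = 0.0197). The CDWIN call was lost without DMSO 1, DMSO 3, CDWIN 2 or CQWIN 3. POLA2 was lower in CDSUM, CDWIN and CQWIN (−0.75, −0.81 and −0.85) and was called in none with the trends removed.

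Of the primase subunits, PRIM1, which makes the RNA primer, was called in none. PRIM2, its partner subunit, stood at 18.8, 16.7 and 20.2 CPM in DMSO, 25.8, 23.5 and 19.9 in CDSUM, 29, 25.1 and 31.5 in CDWIN, 24.3, 36.5 and 27.9 in CQSUM, and 28.9, 26.6 and 19.3 in CQWIN. It was higher in CDWIN (0.62 ± 0.19, edgeR adjusted p = 0.014) and CQSUM (0.67 ± 0.19, edgeR adjusted p = 0.012), where no library overlapped DMSO. Both calls were lost with the trends removed (0.43 and 0.38) and without DMSO 2, the former also without CDWIN 3 and the latter without CQSUM 2. PRIM2 was called higher in CDSUM in that fit (0.59, edgeR adjusted p = 0.0154).

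LIG1, the ligase that seals the lagging strand, and CHAF1A and CHAF1B, subunits of the factor that places histones on new DNA, were lower in all 4 comparisons. LIG1 stood at 94.2, 91.2 and 93.8 CPM in DMSO, 43.6, 45.3 and 40.2 in CDSUM, 32.6, 48.4 and 31.8 in CDWIN, 51.7, 39.6 and 43.0 in CQSUM, and 31.4, 44.4 and 52.6 in CQWIN. CHAF1A stood at 59.3, 53.2 and 53.4 CPM in DMSO, 24.1, 28.4 and 25.6 in CDSUM, 25.0, 28.2 and 25.1 in CDWIN, 30.4, 22.4 and 25.3 in CQSUM, and 17.4, 27.0 and 36.6 in CQWIN. No PM2.5 library reached the DMSO range of either gene. LIG1 was 2.16-fold, 2.47-fold, 2.08-fold and 2.17-fold lower and CHAF1A 2.12-fold, 2.12-fold, 2.12-fold and 2.05-fold lower, with edgeR adjusted p from 0.000136 to 0.00148. With the trends removed the log2 fold changes were −0.61, −0.73, −0.53 and −0.68 for LIG1 and −0.78, −0.66, −0.67 and −0.65 for CHAF1A, all still called. CHAF1B changed less, by −0.60, −0.71, −0.67 and −0.65, its CDSUM call being lost with the trends removed and without DMSO 1, CDSUM 3, CQWIN 2 or CQWIN 3. Its CQSUM call was lost without DMSO 1, CQSUM 2, CQSUM 3 or CQWIN 2, and its CQWIN call without DMSO 1, CQWIN 1 or CQWIN 2.

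FEN1, which trims the flap before LIG1 acts, was called in none, at 194 to 197 CPM in DMSO and 129 to 212 in the PM2.5 libraries. RPA1 and RPA2, which coat single-stranded DNA with RPA3, were called in none either. RPA3, the smallest subunit of that trimer, was the only member higher in all 4 comparisons, beside 5.93% of all genes. It stood at 60.8, 75.6 and 57.1 CPM in DMSO, 157, 164 and 139 in CDSUM, 132, 165 and 144 in CDWIN, 83.7, 141 and 98.6 in CQSUM, and 144, 103 and 63.3 in CQWIN. Only CQWIN 3 lay within the DMSO range. The log2 fold changes were 1.25 ± 0.24, 1.19 ± 0.24, 0.74 ± 0.23 and 0.68 ± 0.23 (edgeR adjusted p = 0.000767, 0.00098, 0.0221 and 0.0378). The CQSUM call was lost with the trends removed (0.53) and without DMSO 1, DMSO 3 or CQSUM 2, and the CQWIN call with the trends removed (0.46) and without DMSO 1, DMSO 3, CDWIN 3 or CQWIN 1.

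Of the enzymes that supply nucleotides, RRM2, TK1 and TYMS were lower in all 4 comparisons. TK1, thymidine kinase of the salvage route and at 215 ± 38.9 FPKM among the most abundant of the 51 genes, stood at 392, 495 and 390 CPM in DMSO, 290, 259 and 217 in CDSUM, 223, 319 and 204 in CDWIN, 263, 251 and 215 in CQSUM, and 186, 269 and 209 in CQWIN. The groups did not overlap with DMSO, and TK1 changed by −0.74, −0.78, −0.81 and −0.94, each with an SE of 0.19, and by −0.76, −0.71, −0.56 and −0.59 with the trends removed, all still called. RRM2, the S-phase subunit of ribonucleotide reductase, stood at 71.8 to 80.8 CPM in DMSO and at 36.4 to 54.8 in the PM2.5 libraries, with log2 fold changes of −0.75, −0.76, −0.78 and −0.67. It shares 20.2% of its exon bases with AC007240.1 on the same strand, which had a mean of 0.269 CPM. TYMS, thymidylate synthase, changed by −0.53, −0.40, −0.41 and −0.46, all 4 called, and shares 39.1% of its exon bases with ENOSF1 on the opposite strand at 24.4 CPM, beside 35.8 for TYMS. As the counting is not stated to use strand, reads of ENOSF1 and TYMS may be shared. Strand could not separate reads of AC007240.1 from those of RRM2. The calls of TYMS were lost without CQWIN 2 or CQWIN 3 in all 4 comparisons and, outside CDSUM, without any 1 of the DMSO libraries. Its CDWIN call was also lost without CDWIN 1 or CDWIN 2, its CQSUM call without any CQSUM library and its CQWIN call without CQWIN 1.

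RRM1, the catalytic subunit of the same reductase, was called in CDSUM only. It stood at 116, 123 and 136 CPM in DMSO, 74.3, 41.1 and 41.5 in CDSUM, 175, 103 and 203 in CDWIN, 166, 173 and 175 in CQSUM, and 163, 192 and 136 in CQWIN. The CDSUM libraries were the lowest of all, and the CQSUM libraries lay above DMSO. RRM1 was 2.39-fold lower in CDSUM (log2 −1.26 ± 0.24, edgeR adjusted p = 0.000766), and its changes of 0.36, 0.46 and 0.39 in the other groups were not called. The authors' deposited table had RRM1 higher in CQSUM (0.51).

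Of the S-phase entry genes, CCND1 and E2F1 were lower in all 4 comparisons. CCND1, the D-type cyclin that links growth signals to the cycle, stood at 248, 208 and 208 CPM in DMSO, 87.8, 89.7 and 109 in CDSUM, 76.7, 81.2 and 83.2 in CDWIN, 102, 78.5 and 92.6 in CQSUM, and 70.7, 84.4 and 115 in CQWIN. The lowest DMSO library lay well above every other. CCND1 shares 10.3% of its exon bases with LTO1 on the opposite strand, which had a mean of 19.0 CPM, beside 116 for CCND1. CCND1 was 2.32-fold, 2.75-fold, 2.43-fold and 2.46-fold lower (edgeR adjusted p = 0.000146, 2.61e-05, 9.86e-05 and 7.26e-05), and with the trends removed its log2 fold changes were −1.04, −1.25, −1.13 and −1.21. E2F1 stood at 96.9, 121 and 92.7 CPM in DMSO, 66.1, 69.1 and 63.1 in CDSUM, 58.1, 82.7 and 56.8 in CDWIN, 55.8, 66.9 and 59.2 in CQSUM, and 46.8, 61.8 and 55.7 in CQWIN. Its groups did not overlap with DMSO either, and it changed by −0.65, −0.65, −0.77 and −0.92, each with an SE of 0.16. E2F1 was at −0.53, −0.44, −0.42 and −0.48 with the trends removed, all still called.

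The E cyclins act with CDK2 at the start of S phase. CCNE1 stood at 45.8, 53.5 and 44.3 CPM in DMSO, 52.4, 47.6 and 43.0 in CDSUM, 48.9, 49.3 and 51.3 in CDWIN, 40.6, 46.5 and 44.4 in CQSUM, and 43.3, 41.7 and 37.1 in CQWIN. It was called in none, with 95% intervals of −0.28 to 0.27, −0.22 to 0.34, −0.41 to 0.15 and −0.51 to 0.04. CCNE2, the least abundant member at 0.442 ± 0.0821 FPKM, stood at 2.5, 1.60 and 2.17 CPM in DMSO, 1.20, 0.926 and 0.706 in CDSUM, 1.38, 0.669 and 2.03 in CDWIN, 2.54, 1.95 and 2.21 in CQSUM, and 2.26, 2.84 and 2.24 in CQWIN. It was lower in CDSUM (−1.15 ± 0.36, edgeR adjusted p = 0.0154), a call lost without DMSO 1, CDSUM 3 or CQWIN 2. CCNE2 was at −0.82 in CDSUM with the trends removed, still called, and was called in CDWIN too (−0.93). It shares 37.0% of its exon bases with INTS8 on the opposite strand, whose mean was 44.1 CPM, so its value is uncertain.

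**Figure D3:**
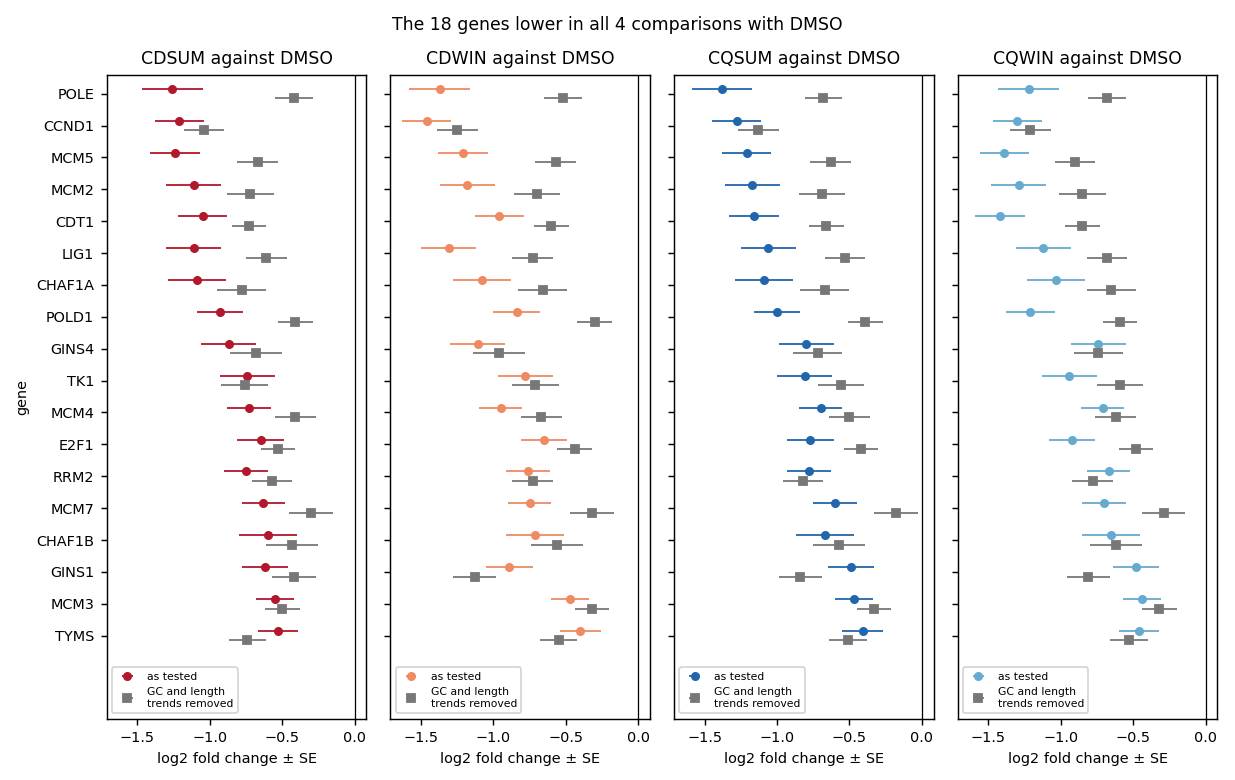
Log2 fold change ± SE of the 18 genes lower in all 4 comparisons with DMSO, as tested (coloured points) and with GC and length trends removed from each library (grey squares), 1 panel per PM2.5 group. POLE moves from −1.26 to −0.42 in CDSUM when the trends are removed, CCND1 from −1.21 to −1.04, and every point lies below 0.

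The 11 genes called in no comparison with DMSO were CCNE1, FEN1, GMNN, ORC6, PCNA, POLD2, POLE2, PRIM1, RFC5, RPA1 and RPA2, which is 21.6% of the members beside 38.8% of all tested genes. Members called in none numbered 19, 18 and 17 without DMSO 1, DMSO 2 and DMSO 3, and 21 with no filter on low counts. Calls over all genes fell in these fits too. In CDSUM 23%, 27.8%, 24.5% and 10.1% of all genes were then lower, in place of 31.2%. Those higher were 10.7%, 14%, 11% and 10.5%, in place of 15.3%. Once the trends were removed PCNA was called in all 4, GMNN in CDSUM and RPA2 in CQWIN (−0.34). The log2 fold changes of the 11 genes as tested ran from −0.44 for POLD2 in CQWIN to 0.46 for POLE2 in CQSUM. The 95% intervals of RPA1, from −0.38 to 0.33 over the 4 comparisons, were among the narrowest. Median GC content of the longest transcript was 47.5% for these genes, 56.0% for the 18 genes lower in all 4 and 48.9% for all tested genes. Across the 51 genes, as a description of members that share libraries, the correlation of GC content with the log2 fold change was near 0 in CDSUM, at 0.02 (Pearson) and −0.01 (Spearman). It was −0.47 and −0.46 in CDWIN, −0.69 and −0.69 in CQSUM, and −0.79 and −0.78 in CQWIN. After removal of the trends the pairs were 0.09 and 0.06, −0.10 and −0.07, −0.25 and −0.22, and −0.41 and −0.43.

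Between the PM2.5 groups, members were called only in the comparisons that include CDSUM and in the interaction. In CDSUM against CQSUM 13 were lower and 0 higher, beside 13.7% and 0.167% of all genes, with 15 members at an unadjusted p under 0.05. In CDWIN against CDSUM 12 were higher and 0 lower, beside 8.17% and 0.244% (8.42% in either direction), with 14 at an unadjusted p under 0.05. These comparisons share the 3 CDSUM libraries. The 13 genes were CCNE2, CDC7, GMNN, MCM10, MCM6, MCM8, ORC2, ORC3, POLA1, POLD3, RFC1, RFC3 and RRM1, and none of the 18 genes lower in all 4 comparisons was among them.

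MCM8 was 6.91-fold lower in CDSUM than in CQSUM (edgeR adjusted p = 0.000337) and 4.88-fold higher in CDWIN than in CDSUM (edgeR adjusted p = 0.00256). RRM1 was 3.27-fold lower and 3.07-fold higher (edgeR adjusted p = 0.000165 and 0.000475), and RFC3 2.47-fold lower and 2.5-fold higher (edgeR adjusted p = 0.000312 and 0.000624). In these 3 genes the CDSUM libraries did not overlap either group. CDC7 was at −2.04 ± 0.42 and 1.56 ± 0.42, POLA1 at −1.66 ± 0.33 and 1.25 ± 0.33, and MCM10 at −1.21 ± 0.25 and 1.02 ± 0.25, all called. RFC1 (−1.75 ± 0.43) and CCNE2 (−1.25 ± 0.36) were called against CQSUM only, whereas GMNN (0.77 ± 0.19 in CDWIN against CDSUM) and ORC3 (0.74 ± 0.19) were called in both. The call in CDWIN against CDSUM was lost without CDSUM 2, CDSUM 3, CDWIN 1 or CDWIN 3 for MCM10 and GMNN, without CDSUM 1, CDSUM 2, CDWIN 1 or CDWIN 3 for CDC7, without these or CDSUM 3 for POLA1, and without CDSUM 1, CDSUM 3, CDWIN 1 or CDWIN 3 for ORC3. In CDSUM against CQSUM the call of RFC1 was lost without CDSUM 2 or CQSUM 1, and that of CCNE2 without CDSUM 2, CDSUM 3, CQSUM 1 or CQSUM 3.

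The 13 genes had a median GC content of 42.0%, with a range of 36.9 to 43.6%, beside 47.9% for all 51. With GC and length trends removed, 7 of the 13 were still lower in CDSUM than in CQSUM, namely CDC7, GMNN, MCM10, MCM8, POLA1, RFC3 and RRM1, and GINS3 was higher, beside 5.15% lower and 4.22% higher of all genes in that fit. Of the 12, GMNN, MCM8, RFC3 and RRM1 were still higher in CDWIN than in CDSUM, and GINS1 was lower, beside 2.62% higher and 1.15% lower. As tested, leaving out CDSUM 2, CDSUM 3, CDWIN 1 or CDWIN 3 brought the 12 down to 5, 4, 4 and 3, while the share of all genes called higher fell to 4.03%, 4.47%, 3.4% and 3.56%. The part of GC content and length in these differences beyond this was not tested.

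**Figure D4:**
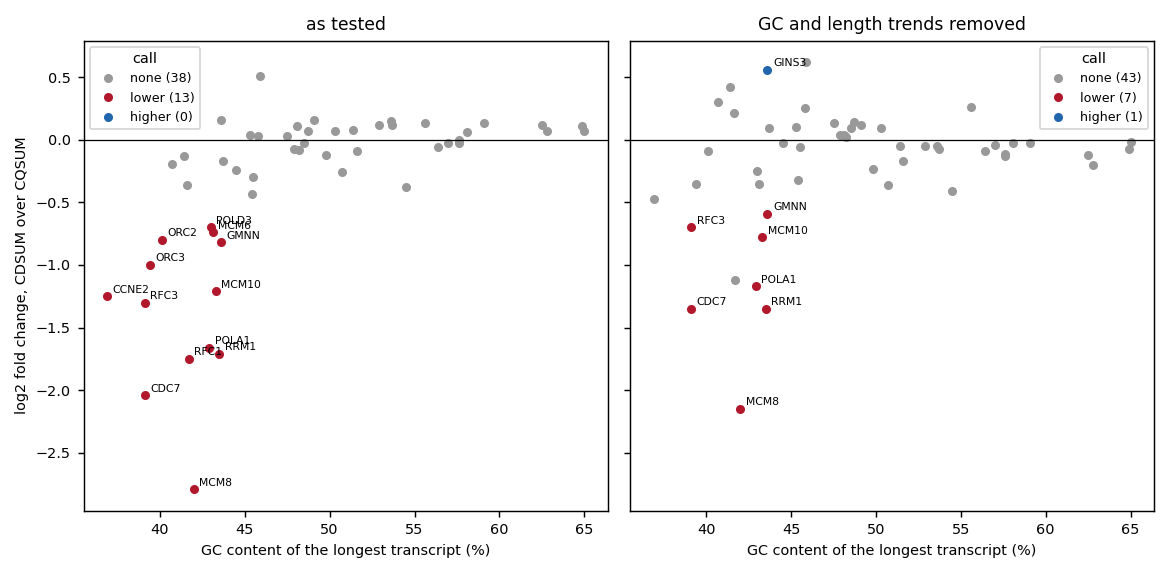
Log2 fold change in CDSUM over CQSUM (vertical axis) of the 51 genes against the GC content of the longest transcript in percent (horizontal axis), as tested (left) and with GC and length trends removed (right), coloured by call. The 13 genes called lower lie between 36.9 and 43.6% GC at the left, and 7 lower and 1 higher are called at the right.

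In CQWIN against CQSUM 0 members were called by edgeR and by DESeq2, beside 0.0193% of all genes (0.00642% lower and 0.0128% higher), and 1 had an unadjusted p under 0.05. The 95% intervals of the log2 difference were −0.51 to 0.28 for MCM2, −0.53 to 0.17 for MCM5, −0.27 to 0.59 for POLE and −0.37 to 0.34 for CCND1. In CDWIN against CQWIN 0 were called by both tools, beside 0.0128% of all genes (0.00642% in each direction), and 9 had an unadjusted p under 0.05, led by GINS2 at 0.47 ± 0.16. Without CQWIN 1 the number called was 4 lower and 1 higher, beside 5.1% and 6.69% of all genes in that fit. The interaction asks whether the gap between CDWIN and CDSUM differs from the gap between CQWIN and CQSUM. It was called for RFC3 (1.52 ± 0.28, edgeR adjusted p = 0.0139), RRM1 (1.68 ± 0.33, edgeR adjusted p = 0.018) and ORC3 (1.12 ± 0.27, edgeR adjusted p = 0.0388), which is 3 of the 51 beside 1.99% of all genes called higher and 0.0385% lower (2.02% in all).

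Of 61 other genes of replication and S-phase entry, 59 were tested, since CCND2 and CDKN2A had 0 reads. They numbered 37 lower and 4 higher in CDSUM, beside 31.2% and 15.3% of all genes, and 24 and 6 in CDWIN, beside 23.3% and 18.4%. In CQSUM they were 15 and 5, beside 18.8% and 13.7%, and in CQWIN 15 and 2, beside 15.8% and 11.6%. Of them 14 were lower in all 4, beside 11.7% of all genes. The falls with the largest mean were those of E2F2, CCND3, E2F8 and UHRF1. CCND3, a D-type cyclin, stood at 376 to 505 CPM in DMSO and 113 to 186 in the PM2.5 libraries, with log2 fold changes of −1.35, −1.59, −1.64 and −1.80. E2F2, an activator like E2F1, changed by −1.65, −1.66, −1.60 and −1.57, E2F8, a repressor of the same family, by −2.04, −1.57, −1.32 and −1.06, and UHRF1, which brings the maintenance methyltransferase to new DNA, by −1.36, −1.57, −1.32 and −1.39, all called. The rises with the largest mean were those of POLE4, ORC4, POLD4 and CDK4. POLD4, the smallest polymerase delta subunit, was higher in all 4, by 0.68, 0.56, 0.50 and 0.55. POLE4 was higher in CDSUM, CDWIN and CQSUM (1.15, 1.28 and 0.78), ORC4 in CDWIN, CQSUM and CQWIN (1.07, 0.82 and 0.70), and CDK4, the kinase partner of the D cyclins, in CDSUM and CDWIN (0.72 and 0.78).

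Markers of mitosis and proliferation were measured beside these genes. The 12 markers summed to 1300 to 1600 CPM in DMSO, 738 to 1000 in CDSUM, 1100 to 1270 in CDWIN, 1220 to 1480 in CQSUM and 958 to 1600 in CQWIN. Lower were 9 of the 12 in CDSUM, 4 in CDWIN, 3 in CQSUM and 3 in CQWIN, beside 31.2%, 23.3%, 18.8% and 15.8% of all genes. Higher were 0, 1, 1 and 0, beside 15.3%, 18.4%, 13.7% and 11.6%. MKI67, the proliferation antigen, was lower in all 4, by −1.88, −1.39, −1.16 and −0.87, whereas CCNB1, the mitotic cyclin, was called in none. TOP2A spread widely within groups, at 387, 47.5 and 118 CPM in CQSUM and 31.9, 411 and 293 in CQWIN, and the sums include it. TOP2A and CCNA2 are also counted among the 61 other genes of replication and S-phase entry. In CDSUM against CQSUM 4 of the 12 were lower, beside 13.7% of all genes, and in CDWIN against CDSUM 3 were higher, beside 8.17%. What part cell cycle position has in the levels of the 51 genes was not tested.

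In the authors' deposited table the members lower and higher at an adjusted p under 0.05 were 27 and 8 in CDSUM, beside 15.1% and 15.3% of all genes with a p there. They were 22 and 7 in CDWIN, beside 12.8% and 13%, 20 and 7 in CQSUM, beside 12.3% and 11.6%, and 16 and 0 in CQWIN, beside 7.18% and 5.24%. For CDWIN against CDSUM the authors' deposited table had 12 members higher and 0 lower, beside 6.22% and 0.607%, and for CDSUM against CQSUM 13 lower and 1 higher, beside 9.67% and 3.24%. It had 0 members called in CQWIN against CQSUM, beside 0.00409% lower and 0.00817% higher, and 0 in CDWIN against CQWIN, beside 0.00414% in each direction.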

How the data were processed

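RNA was sequenced from 15 libraries of A549 cells in 5 groups of 3. The authors deposited raw read counts and FPKM values per gene, and the deposited table also holds their log2 fold changes and p-values for 8 comparisons, per the file headers. The aligner, the counter and the strand are not given in the sources used here, and the labels name 2 library kits. The submitters' processing notes name the mouse builds GRCm38 and mm10, yet all 58735 identifiers are human and share start and end with GENCODE 29, so coordinates are on GRCh38. Counts were the input, filtered with filterByExpr of edgeR 4.0.16 in R 4.3.3, which kept 15565 of the 29725 genes with reads (0.0838% of reads removed), scaled by TMM and fitted by group (10 residual degrees of freedom, biological coefficient of variation 20.5%). Each SE was derived from the log2 fold change and its F value. The deposited FPKM served only for levels per length.

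The 51 members, the other lists and the rules were chosen with earlier results of these data known. Values are given for members called alike in all 4 comparisons with DMSO, the 12 with the largest mean in full, for MCM2 to MCM7, PCNA and the S-phase entry genes in any case, for up to 8 called members per other comparison, for members called higher, and by range for the rest. Of the other replication genes up to 4 are named per direction.

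Alternatives were the size factors of DESeq2 1.42.0, DESeq2 itself, no filter, a filter of 5 CPM in 3 libraries, a replicate block, the compared groups only, GC and length trends removed (per library, by natural splines of 6 degrees of freedom), and libraries left out. Trends removed without CDWIN 2 and CQWIN 3 was chosen after seeing the data. Promoters are from RefSeq (GRCh38.p14). Models were tested on simulated data.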

Additional observations from a re-analysis of the deposited data

Results flagged for a closer look

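The difference between the CD and the CQ groups in the gap between WIN and SUM was itself tested, as an interaction in edgeR's quasi-likelihood model, and was called for RRM1 at 1.68 ± 0.33, RFC3 at 1.52 ± 0.28 and ORC3 at 1.12 ± 0.27 (log2). RRM1 was 1.62 higher in CDWIN than in CDSUM and −0.06 in CQWIN against CQSUM, RFC3 1.32 and −0.20, and ORC3 0.74 and −0.37, with CDSUM libraries below the CDWIN libraries in all 3 genes. With GC and length trends removed RRM1 was still called at 1.38, while RFC3 (0.90) and ORC3 (0.54) were not. The 3 calls were all lost without CDSUM 2, CDSUM 3, CDWIN 1, CDWIN 3, CQSUM 3 or CQWIN 3. That of ORC3 was lost in addition without DMSO 1, DMSO 3, CDSUM 1, CQSUM 1, CQSUM 2 or CQWIN 1.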

How the results depend on the processing

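Of the calls against DMSO, 20 of 34 in CDSUM, 13 of 26 in CDWIN, 11 of 22 in CQSUM and 12 of 22 in CQWIN held under every alternative run, as did 3 of 12 in CDWIN against CDSUM, 5 of 13 in CDSUM against CQSUM and 0 of 3 in the interaction. The number lower in all 4 ran from 12, with no filter, to 18. The share of all genes tested in the full set moved too. It was 6.91% with no filter, and 9.23% to 16.3% in the fits with 18. With the GC trend removed CQSUM against DMSO had 14 calls in place of 22, and over all genes 3485 in place of 5061. CDWIN against CDSUM, at 12, had 7 with no filter and 8 with the size factors of DESeq2. It had 4 with the GC trend removed, 5 with both trends removed, and 5 with both and a replicate block. It had 7 with both and without CDWIN 2 and CQWIN 3, and ran from 3 to 13 with 1 library left out. Over all genes the calls were 1310 as tested and 1332, 1062, 483, 586, 608 and 1018 in these fits in order. They ran from 554 to 1866 with 1 library left out. CDSUM against CQSUM, at 13, had 6 with the GC trend removed and 8 with both. Of all genes, 13.9% were called there as tested and 9.37% with both trends removed. CDWIN against CQWIN, at 0, had 1 with no filter and 0 to 5 with 1 library left out. The 5 were without CQWIN 1, where the shares of all genes given above rose as well. The interaction, at 3, had 5 with DESeq2, 2 with its size factors, 4 with the stricter filter, 2 with the length trend removed, 1 on the compared groups only, 0 with the GC trend removed, 1 with both trends removed, 1 with both and a replicate block, 9 without CDWIN 2 and CQWIN 3, 1 with both trends removed and without these libraries, and 0 to 9 with 1 library left out. Of all genes, 2.02% were called in the interaction as tested and 0.54% with both trends removed. The shares of all genes in its other fits are not given, so its counts from 0 to 9 do not describe the members alone. Without CQWIN 2 the members called higher against DMSO were 4, 9, 7 and 1, and without CQWIN 3 they were 6, 9, 8 and 6, in the order CDSUM, CDWIN, CQSUM and CQWIN. In these fits 21.1%, 22.9%, 21.7% and 13.8%, and 22.9%, 24.6%, 24.9% and 24.3%, of all genes were higher.

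PCNA reversed with both trends removed, alone, with the replicate block and without CDWIN 2 and CQWIN 3, from 0.10 to −0.36, −0.36 and −0.33 in CDSUM, from 0.21 to −0.39, −0.39 and −0.39 in CDWIN and from 0.06 to −0.46, −0.46 and −0.44 in CQSUM, and in CQWIN from 0.11 to −0.37 and, without the libraries, −0.36. RPA2 in CDSUM reversed from 0.07 to −0.28 with trends removed and the block and to −0.26 without the libraries, and GINS1 in CDSUM against CQSUM from −0.13 to 0.42 without them. The causes were not tested.

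Replicate numbers showed no clear pairing of the samples. Libraries of the same number correlated from −0.414 to 0.395 in their deviations from the group means (median 0.0496, 30 pairs). Those of different numbers correlated from −0.441 to 0.47 (median −0.0278, 60 pairs), and 5 of 15 libraries correlated best with their own number. Such values cannot exclude a pairing. With the replicate block 34, 26, 22, 23, 12, 0, 13, 0 and 3 members were called over the 9 comparisons, which moved no count by over 1.5 times. Counts near 1 CPM limit CCNE2 in particular.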
